A study of Mus musculus with 12 samples.

Results

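Aminoacyl-tRNA synthetases, the enzymes that join each amino acid to its tRNA, were followed in RNA-seq of primary oligodendrocyte progenitor cells from wild-type mouse brain. The genes were taken by symbol: all genes named by a single amino acid letter followed by "ars", with or without an ending. The phenylalanyl enzyme's genes and Eprs were taken by name. The genes described here are 37 of the 18876 listed in any library, 21 for enzymes of the cytosol and 16 for enzymes of mitochondria. All 37 were listed in all 12 libraries and all 37 passed the filter on low counts, with a lowest expected count of 17 for Pars2. The 4 groups, each of 3 libraries and 12 h of treatment, were hemin (50 µM) with interleukin-10 (IL-10, 10 ng/mL) and stattic (2.5 µM), hemin with IL-10, hemin alone, and vehicle, with the same doses wherever an agent recurs. Hemin is oxidised heme, stattic is a STAT3 inhibitor, and STAT3 is the transcription factor downstream of the receptor for IL-10, an anti-inflammatory cytokine. No group received IL-10 or stattic without hemin, and stattic was never given without IL-10. Whether the 3 libraries of a group come from different cultures or animals is not stated in the labels, and the p-values therefore refer to the spread between libraries, which may be technical.

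Each synthetase recognises 1 amino acid, except Eprs, which serves both glutamate and proline. Protein synthesis therefore needs a full set in the cytosol. A largely separate set, encoded by other nuclear genes, charges the tRNAs inside mitochondria. Gars (glycine) and Kars (lysine) each serve both compartments. Many cytosolic synthetase genes are known targets of ATF4, the transcription factor of the integrated stress response, in which kinases of the translation factor eIF2 slow general translation while ATF4 is made. Among those kinases Eif2ak1 is held inactive by heme. Inherited defects of several synthetases are known causes of white matter disease in people.

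Promoters of cytosolic members are shown because the ATF4 response element is a known feature of this gene family and because 9 of its 21 cytosolic members were called higher with hemin. The element was searched as TGATGNAA on both strands, which reads TTNCATCA when the match is on the opposite strand, from 250 bases before to 50 bases after the RefSeq transcript start (GRCm38.p6). A promoter was given for 28 members, and 5 of them (17.9%) held a match, against 4.51% of the 27025 genes in the same table. All 5 were cytosolic (5 of 14, 35.7%), and 0 of 14 mitochondrial members held one. Of the cytosolic members widely described as ATF4 targets, 8 had a promoter in the table and 5 of these held a match. Among the genes called higher with hemin, Nars, Rars, Cars and Lars had no promoter there, and that of Sars held no match. Iars held a match but was not called with hemin. The letters that match are in capitals, each sequence ends 20 bases after the start, and all are written 5′ to 3′ on the strand of the gene. Aars lies at chr8:111033722-111033861 (+ strand), Gars at chr6:55037921-55038020 (+), Iars at chr13:49682050-49682149 (+), Tars at chr15:11399639-11399738 (− strand) and Yars at chr4:129189823-129189922 (+).
Aars: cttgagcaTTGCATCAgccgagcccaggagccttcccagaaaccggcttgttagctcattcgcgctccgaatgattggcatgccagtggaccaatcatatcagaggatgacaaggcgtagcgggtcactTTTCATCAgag
Gars: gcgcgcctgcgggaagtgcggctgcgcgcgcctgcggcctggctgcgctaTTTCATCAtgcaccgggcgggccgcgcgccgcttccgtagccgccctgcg
Iars: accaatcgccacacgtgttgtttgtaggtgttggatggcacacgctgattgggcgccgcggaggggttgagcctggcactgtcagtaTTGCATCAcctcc
Tars: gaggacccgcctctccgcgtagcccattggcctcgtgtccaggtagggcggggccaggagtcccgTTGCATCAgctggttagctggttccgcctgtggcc
Yars: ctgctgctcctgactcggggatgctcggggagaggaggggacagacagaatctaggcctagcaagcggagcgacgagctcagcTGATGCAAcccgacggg
The match lay 30 to 23 bases before the start in Gars and 15 to 8 bases before it in Tars. In Iars and Yars it lay just after the start, and Aars held 1 match on each side of it. A match describes letters and not binding.

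Libraries were of even depth, with expected counts summing to 9404448 to 10266653 over 15051 to 16899 listed genes. The summed level of 10 progenitor markers was 1014 to 2247 CPM (counts scaled to library size with TMM factors) with hemin, IL-10 and stattic, 1510 to 2938 with hemin and IL-10, 2051 to 3081 with hemin, and 4866 to 6981 with vehicle. Microglial markers (12 genes) summed to 67.2 to 147, 24.4 to 54.5, 46.6 to 149 and 7.71 to 32.6 CPM in the same order of groups, and fibroblast and vascular markers (8 genes) to 27.4 to 66.7, 13.5 to 54.9, 43.4 to 176 and 4.39 to 6.31 CPM. Astrocyte markers (6 genes) summed to 933 to 3490 CPM in the hemin-treated libraries and to 1975 to 5409 CPM with vehicle, and neuronal markers (6 genes) to 605 to 1096 and 837 to 1072 CPM. No marker was at 0 throughout a group. The part of these marker levels in the synthetase results was not tested, and in bulk RNA fewer cells of a type and less RNA per cell cannot be told apart. Transcript length set some libraries apart. The Spearman correlation across genes between a library's log2 difference from the vehicle mean and transcript length was -0.60 in stattic replicate 3 and -0.35 in hemin replicate 1. It was between -0.18 and -0.07 in the other 7 hemin-treated libraries and between -0.07 and 0.11 with vehicle. Results are therefore given with and without those 2 libraries.

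Cytosolic enzymes were the more abundant transcripts per length. The median FPKM (fragment counts scaled by the authors for transcript length and library depth) over the 21 cytosolic genes was 70.8 with hemin, IL-10 and stattic, 86.2 with hemin and IL-10, 64.2 with hemin and 47.0 with vehicle. Over the 16 mitochondrial genes it was 6.06, 6.73, 6.55 and 8.70 in the same order. In vehicle libraries Kars led with 106 ± 10.5 FPKM (SD, n = 3), and its libraries lay above all those of the next gene, Nars (asparagine), at 79.1 ± 4.12 FPKM. From Nars through Dars, Aars, Eprs, Gars and Yars to Hars (62.7 FPKM) each neighbour in the order overlapped the next. Lars2 (leucine, 40.1 FPKM) and Iars2 (isoleucine, 33.0 FPKM) had the highest means of the mitochondrial genes in vehicle libraries, at places 15 and 20 of the 37. Lars2 stood at 64.4, 25.2 and 30.6 FPKM there. In replicates 2 and 3 it was below Iars2 (34.5 and 33.4 FPKM), so its place rested on replicate 1. Pars2 (proline) was last at 3.34 FPKM, and its libraries overlapped those of Ears2 (glutamate, 3.72 FPKM). Nars had the highest mean of the 37 in every hemin-treated group. Its mean FPKM was 289 with hemin, IL-10 and stattic, 377 with hemin and IL-10 and 248 with hemin. In each of these groups its libraries overlapped those of the next gene. In stattic replicate 3 Nars stood at 120 FPKM, below Lars2 (304), Kars (158) and Gars (124).

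The first comparison asks what hemin did to the family. Against vehicle, hemin raised 9 of 21 cytosolic genes and lowered 0, and it raised 0 and lowered 3 of 16 mitochondrial genes (edgeR quasi-likelihood test, Benjamini-Hochberg adjusted p under 0.05 over the 13967 genes tested). Over all genes tested, 11.7% were called higher and 9.15% lower. With library totals in place of TMM factors these shares were 9.99% and 11.4%, and with limma on log2(FPKM + 1) 7.76% and 12.3%, so which direction held more calls over all genes depended on the scaling. Library totals shifted the median log2 change of all genes by -0.10 with hemin, -0.13 with hemin and IL-10 and -0.23 with hemin, IL-10 and stattic, each against vehicle. The differences between the compartment medians were then 1.28, 1.56 and 1.29 in the same order, against 1.29, 1.57 and 1.23 with TMM factors. The median log2 change was 0.91 over the cytosolic genes, -0.38 over the mitochondrial genes and 0.03 over all genes tested. The difference between the 2 compartment medians was 1.29 on the log2 scale. A related measure, each library's difference between the compartment means of log2 CPM, had a pooled SD of 0.26 within groups. Of the cytosolic genes 17 had a positive log2 change, and of the mitochondrial genes 11 had a negative one.

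**Figure D1:**
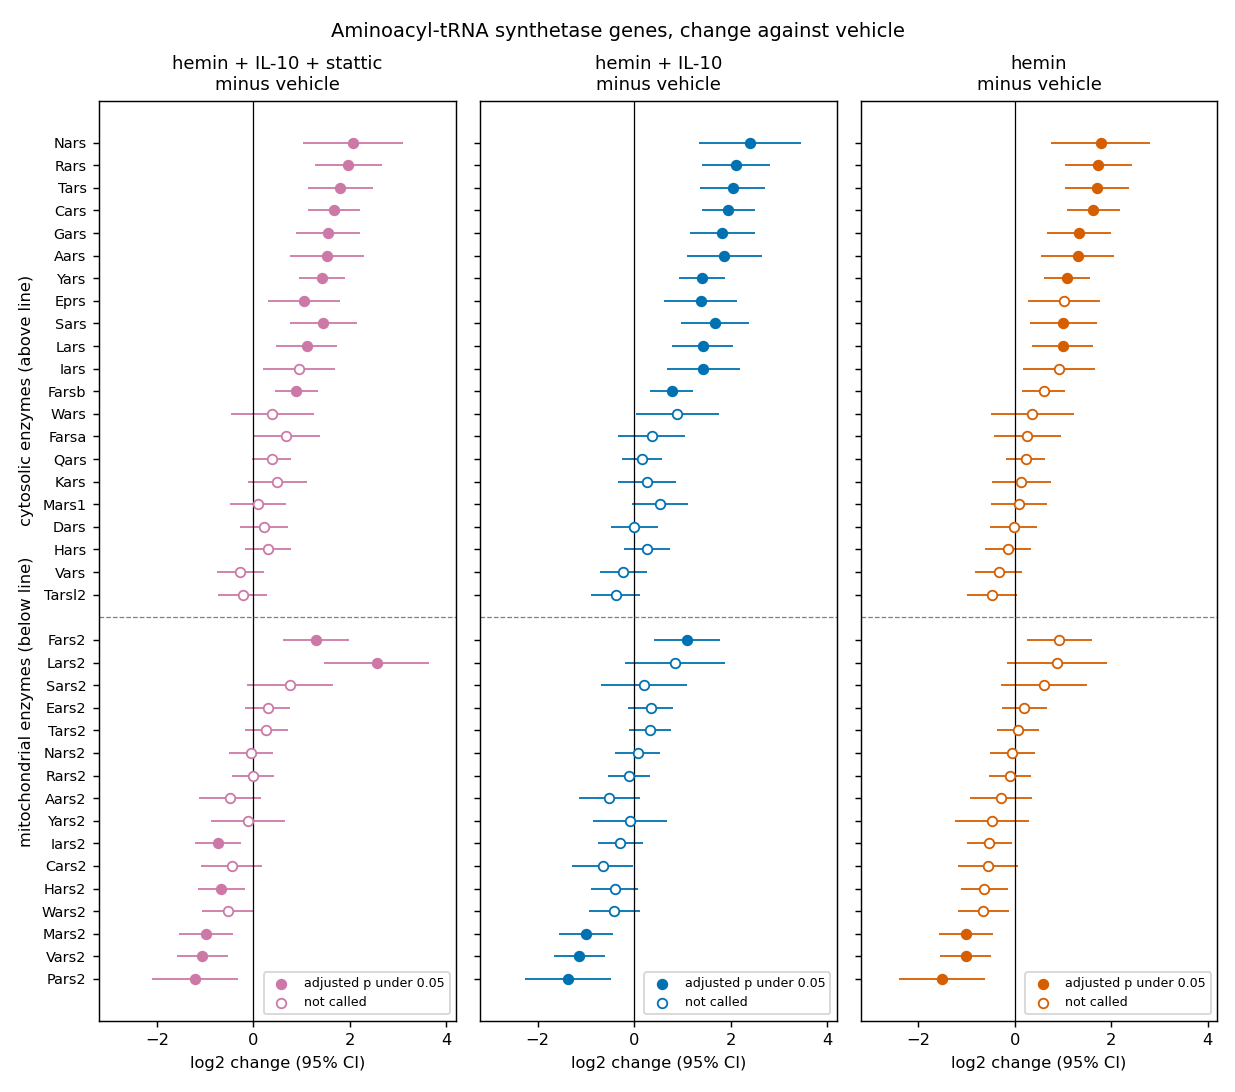
Log2 change against vehicle of each of the 37 synthetase genes with its 95% CI, in 3 panels by treatment, with filled points for an adjusted p under 0.05 and open points for the rest; cytosolic genes are above the dashed line and mitochondrial genes below it. In the hemin panel the filled points are 9 cytosolic genes to the right of 0 and 3 mitochondrial genes to the left of it.

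Nars, which charges tRNA with asparagine, stood at 754, 795 and 317 CPM in the 3 hemin libraries, against 171, 186 and 188 CPM with vehicle. The groups did not overlap, and hemin replicate 3 lay well below the other hemin libraries. The log2 change was 1.78 ± 0.47 (SE; adjusted p = 0.0208), the largest of the 37, and the 95% CI ran from 0.75 to 2.80.

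Rars, the arginine enzyme, stood at 307, 373 and 190 CPM with hemin, against 71.2, 102 and 90.2 CPM with vehicle. Tars, the threonine enzyme, stood at 335, 341 and 201 CPM with hemin, against 75.1, 102 and 92.2 CPM with vehicle. Cars, the cysteine enzyme, stood at 174, 241 and 165 CPM with hemin, against 59.4, 67.0 and 61.7 CPM with vehicle. For each of these genes every hemin library was above every vehicle library, and replicate 3 was the lowest hemin library. Their log2 changes were 1.73 ± 0.32 for Rars (adjusted p = 0.00423), 1.70 ± 0.31 for Tars (adjusted p = 0.00387) and 1.62 ± 0.25 for Cars (adjusted p = 0.00176).

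Gars, which charges glycine in both compartments, stood at 439, 443 and 233 CPM with hemin, against 134, 152 and 158 CPM with vehicle. Yars, the tyrosine enzyme, stood at 303, 331 and 242 CPM with hemin, against 132, 139 and 143 CPM with vehicle. Again no libraries of the groups overlapped. The log2 change was 1.33 ± 0.30 for Gars (adjusted p = 0.0113) and 1.08 ± 0.22 for Yars (adjusted p = 0.00644). Aars (alanine, 1.30), Sars (serine, 1.00) and Lars (leucine, 0.99) were the other cytosolic genes called, with adjusted p of 0.0218, 0.0427 and 0.0298. Aars overlaps Exosc6 on the same strand by 1326 bases in GENCODE M21, so part of its count could belong to that gene.

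**Figure D2:**
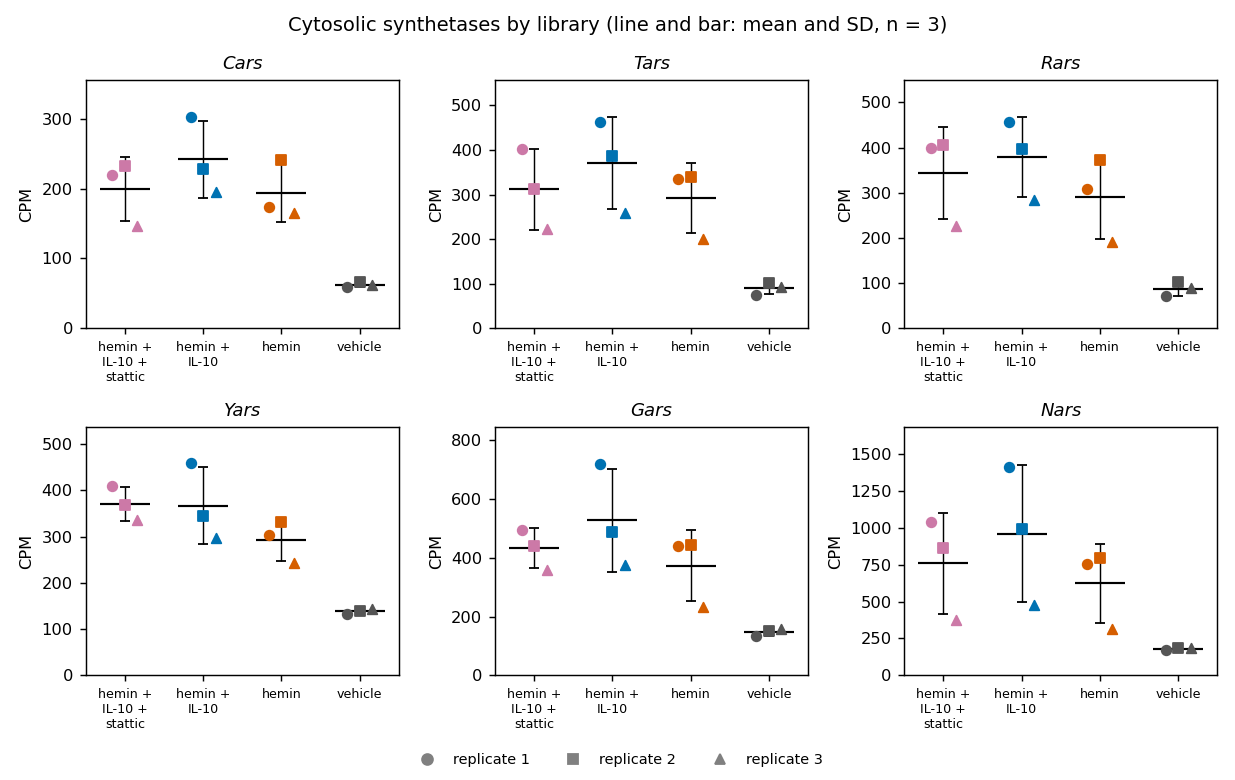
CPM (TMM-scaled) of 6 cytosolic synthetase genes in each library, by treatment, with replicate numbers as symbols and black lines and bars for mean and SD (n = 3). All 9 hemin-treated libraries lie above the 3 vehicle libraries in every panel, and replicate 3 is the lowest library of each hemin-treated group.

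Several cytosolic genes gave no call. Eprs, which joins both glutamate and proline, had a log2 change of 1.01 (adjusted p = 0.0545), Iars (isoleucine) 0.91 (adjusted p = 0.0806) and Farsb, the beta subunit of the phenylalanine enzyme, 0.59 (adjusted p = 0.0579). In these 3 genes the hemin and vehicle libraries did not overlap in CPM either. In FPKM those of Farsb did, with 48.1 in the lowest hemin library and 49.6 in the highest vehicle library. The share of all genes whose groups did not overlap was not counted. Separation of the libraries is therefore a description, here and for the other genes. Farsa, the alpha subunit of that enzyme, had a log2 change of 0.26 (95% CI -0.43 to 0.95), and its groups overlapped. Kars, the leader in vehicle libraries, stood at 280, 193 and 164 CPM with hemin, against 172, 208 and 202 CPM with vehicle. Its groups overlapped, with a log2 change of 0.13 (95% CI -0.48 to 0.74), and -0.13 without hemin replicate 1. Wars (tryptophan) stood at 211, 188 and 87.9 CPM with hemin, against 135, 135 and 110 CPM with vehicle, and the groups overlapped because hemin replicate 3 was the lowest of the 6 libraries. Its log2 change was 0.36 (95% CI -0.50 to 1.22). Tarsl2, a cytosolic threonyl-like enzyme despite its ending, stood at 26.1, 28.2 and 28.6 CPM with hemin, against 35.6, 35.7 and 44.3 CPM with vehicle. Its groups did not overlap, and the log2 change of -0.48 (95% CI -1.0 to 0.04) did not pass the test (adjusted p = 0.17). Tarsl2 overlaps Tm2d3 on the same strand by 923 bases.

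The remaining cytosolic genes were Vars (valine), with a log2 change of -0.33 (95% CI -0.82 to 0.15), Qars (glutamine), with 0.22 (95% CI -0.19 to 0.63), and Dars, Hars and Mars1 (aspartate, histidine and methionine). Mean CPM with hemin and with vehicle was 151 ± 38.7 and 154 ± 16.4 for Dars, 98.6 ± 29.3 and 109 ± 9.46 for Hars, and 110 ± 22.7 and 103 ± 9.81 for Mars1 (SD, n = 3 each). In each of these 3 the groups overlapped. Mars1 overlaps the stress-response gene Ddit3 on the opposite strand by 68 bases, and whether counting used strand is not stated.

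The called cytosolic genes were also counted by role, on lists chosen with earlier results known, and the differences between lists were not tested. Of the 13 genes widely described as ATF4 targets 8 were higher, and of the other 8 cytosolic genes 1 was higher, Rars. The medians were 1.01 and 0.18 on the log2 scale. The exceptions among the 13 were Eprs, Iars, Mars1, Vars and Wars. Of the 8 synthetases carried in the multi-tRNA synthetase complex, Rars and Lars were higher and the other 6 (Eprs, Iars, Mars1, Qars, Kars and Dars) gave no call. By catalytic fold, 4 of 18 class I genes were higher and 2 lower, and 5 of 18 class II genes were higher and 1 lower, so both classes held members of each direction.

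The 3 mitochondrial genes called lower were transcripts of low level. Vars2 (valine) stood at 17.9, 14.0 and 17.6 CPM with hemin, against 31.5, 34.1 and 35.3 CPM with vehicle. Mars2 (methionine) stood at 11.5, 9.84 and 11.2 CPM with hemin, against 17.7, 26.4 and 21.5 CPM with vehicle. Pars2 stood at 3.27, 2.56 and 1.80 CPM with hemin, against 6.49, 7.40 and 8.09 CPM with vehicle. In all of these the groups were apart, and the spread in vehicle was widest for Mars2. They fell by 1.02 (Vars2, adjusted p = 0.0134), 1.01 (Mars2, adjusted p = 0.0176) and 1.52 (Pars2, adjusted p = 0.0221) on the log2 scale, the last being the largest fall of the 37. Vars and Mars1, the cytosolic counterparts of the first pair, and Eprs, which serves proline in the cytosol, gave no call in this comparison. Vars2 overlaps an antisense transcript by 4734 bases.

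**Figure D3:**
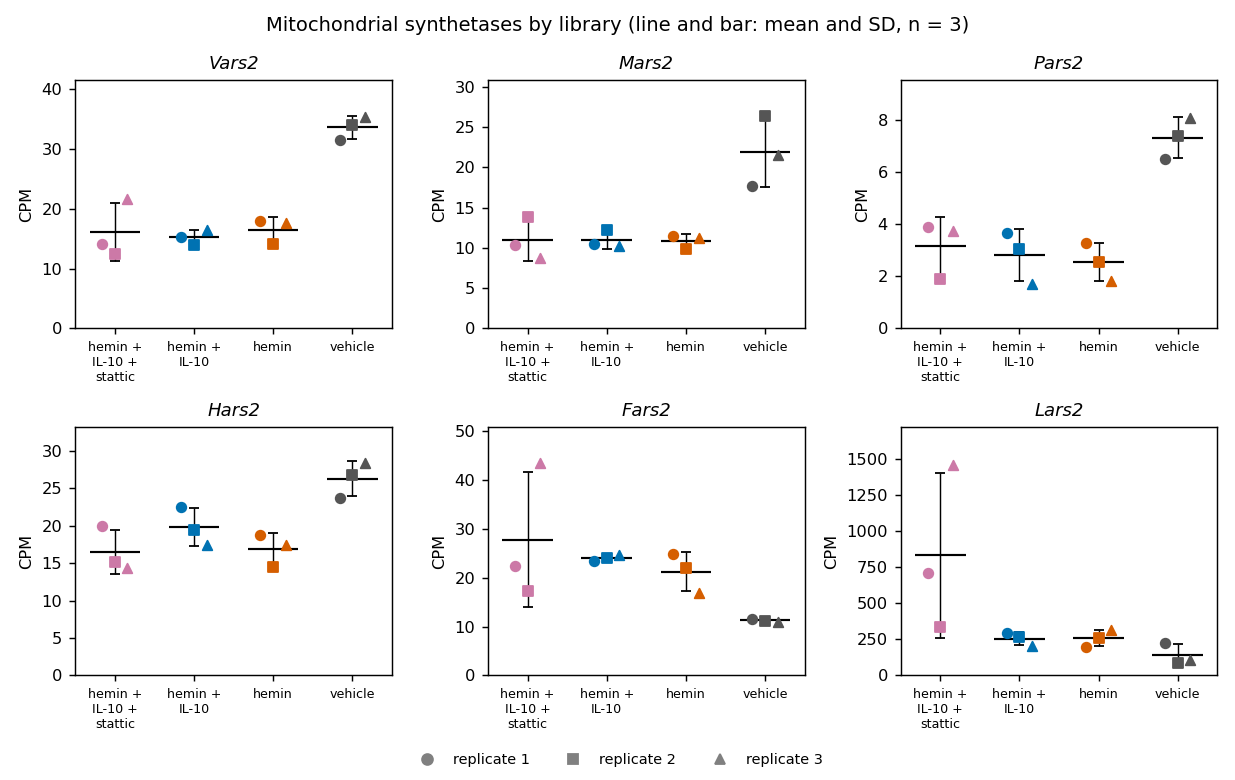
CPM of 6 mitochondrial synthetase genes in each library, by treatment, with replicate numbers as symbols and black lines and bars for mean and SD (n = 3). Vars2, Mars2, Pars2 and Hars2 lie lower in all 9 hemin-treated libraries than in the 3 vehicle libraries, Fars2 lies higher in all 9, and Lars2 reaches 1454 CPM in stattic replicate 3.

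The other 13 mitochondrial genes gave no call with hemin. Hars2 (histidine) stood at 18.7, 14.6 and 17.4 CPM with hemin, against 23.8, 26.8 and 28.4 CPM with vehicle, without overlap, and its log2 change of -0.64 did not pass the test (adjusted p = 0.0613). Wars2 (log2 change -0.66, adjusted p = 0.0724), Cars2 (-0.56, adjusted p = 0.19) and Iars2 (-0.53, adjusted p = 0.0989) also had hemin libraries wholly under the vehicle libraries. Aars2 had a log2 change of -0.29 (95% CI -0.93 to 0.34). Fars2, the phenylalanine enzyme of mitochondria, went the other way. It stood at 24.9, 22.0 and 16.9 CPM with hemin, against 11.6, 11.1 and 11.0 CPM with vehicle, without overlap. Its log2 change of 0.92 missed the threshold (adjusted p = 0.0549). On the opposite strand Fars2 overlaps Lyrm4 by 115 bases, Nrn1 by 920, and the antisense transcripts Gm48767 and Gm48765 by 6171 and 72312. Ears2 averaged 17.4 CPM with hemin and 15.2 CPM with vehicle, Nars2 23.3 and 24.1 CPM, Rars2 35.0 and 37.3 CPM, Tars2 38.2 and 36.5 CPM, and Yars2 11.4 and 15.8 CPM. In these 5 genes the groups overlapped in CPM. In FPKM the hemin libraries of Nars2 (at most 4.44) and Tars2 (at most 13.5) lay below those of vehicle (at least 4.62 and 14.0). The means of Ears2 and Tars2 were also lower with hemin in FPKM (3.31 against 3.72, and 12.3 against 15.5). Sars2 averaged 18.0 ± 1.48 CPM with hemin and 11.9 ± 3.08 CPM with vehicle (SD, n = 3 each), and its groups did not overlap in CPM. In FPKM they did, with 9.22 in the lowest hemin library and 9.43 in the highest vehicle library.

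How firmly these calls stand differs between genes. The calls of Cars, Rars, Tars and Yars held in each of the 12 fits that left out 1 library. Vars2 lost its call without hemin replicate 2 (adjusted p = 0.0598), and Gars without hemin replicate 2 or vehicle replicate 1 (at most 0.0540). Mars2 lost it without hemin replicate 2 or vehicle replicate 2 or 3 (at most 0.0807), and Pars2 without hemin replicate 2 or 3 or any vehicle library (at most 0.0760). Aars and Nars lost it without hemin replicate 1 or 2 or any vehicle library (at most 0.0880 and 0.0809), and Lars and Sars also without the second library of hemin with IL-10 (at most 0.133 and 0.148). The count of cytosolic genes called higher was accordingly 4 without vehicle replicate 1 or hemin replicate 2. It was 5 when hemin replicate 1 or either of vehicle replicates 2 and 3 was left out. The share of all genes called higher fell as well, from 11.7% to 5.63%, 6.09%, 9.15%, 6.45% and 5.84% in the same order of fits. For mitochondrial genes called lower the count was 0 when hemin replicate 2 was left out, 1 when vehicle replicate 2 or 3 was, and 5 when stattic replicate 3 was. Over all genes 3.11%, 4.95%, 4.47% and 13.8% were called lower in that order of fits. Without the 2 libraries of steepest length trend, 10 cytosolic genes were higher, 4 mitochondrial genes lower and 1, Fars2, higher. Over all genes 14.6% were then higher and 11.7% lower.

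Hemin with IL-10 was set against the same 3 vehicle libraries, so its values stand beside those of hemin alone and are not a second test. It raised 12 of 21 cytosolic genes and lowered 0, and it raised 1 and lowered 3 of 16 mitochondrial genes (edgeR, adjusted p under 0.05), where 12.1% of all genes were called higher and 8.81% lower (9.43% and 11.9% with library totals). The median log2 change was 1.38 over cytosolic, -0.19 over mitochondrial and 0.00 over all genes. The mitochondrial median was -0.10 without vehicle replicate 2, -0.29 without vehicle replicate 1, -0.31 without IL-10 replicate 1 and -0.33 with library totals. Nars stood at 1409, 990.0 and 479 CPM, Rars at 457, 397 and 283 CPM, and Tars at 464, 388 and 260 CPM, with replicate 3 again the lowest library of each. These gave log2 changes against vehicle of 2.40 ± 0.48 for Nars (adjusted p = 0.00636), 2.11 ± 0.32 for Rars (adjusted p = 0.00188) and 2.04 ± 0.31 for Tars (adjusted p = 0.00188). Cars rose by 1.95, Aars by 1.87, Gars by 1.83, Sars by 1.68, Lars by 1.42 and Yars by 1.41. Iars (1.43, adjusted p = 0.0149), Eprs (1.38, adjusted p = 0.0173) and Farsb (0.78, adjusted p = 0.0207) also passed the test here. Wars stood at 356, 206 and 146 CPM, above all vehicle libraries, and its log2 change of 0.90 did not pass (adjusted p = 0.127).

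Among mitochondrial genes with hemin and IL-10, Vars2 fell by 1.14 on the log2 scale (adjusted p = 0.00852), Pars2 by 1.38 (adjusted p = 0.033) and Mars2 by 1.00 (adjusted p = 0.0192). Fars2 stood at 23.5, 24.0 and 24.7 CPM, nearly without spread, and rose by 1.10 (adjusted p = 0.0282). Lars2 stood at 297, 264 and 203 CPM, which overlapped vehicle. The calls of Aars, Cars, Gars, Lars, Nars, Rars, Sars, Tars, Yars and Vars2 held whichever library was left out. Fars2 lost its call without any 1 of the 6 libraries compared (adjusted p at most 0.0802). Eprs and Farsb lost theirs without IL-10 replicate 1 or 2 or vehicle replicate 1 or 3 (at most 0.0722 and 0.0867), and Iars without IL-10 replicate 1 or vehicle replicate 1 or 3 (at most 0.0709). Mars2 lost its call without IL-10 replicate 1 or 2 or vehicle replicate 2 or 3 (at most 0.0880), and Pars2 without IL-10 replicate 2 or 3 or any vehicle library (at most 0.0965). The count of mitochondrial genes called lower was 1 without vehicle replicate 2 or 3 or IL-10 replicate 2. Over all genes 4.97%, 4.16% and 2.97% were called lower in these fits.

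Hemin with IL-10 and stattic, again against the same vehicle libraries, raised 11 of 21 cytosolic genes and lowered 0, and it raised 2 and lowered 5 of 16 mitochondrial genes. Over all genes 14.7% were called higher and 10.2% lower, against 10.1% and 15.8% with library totals. The median log2 change was 0.95 over cytosolic, -0.29 over mitochondrial and 0.10 over all genes. The mitochondrial median was -0.16 without vehicle replicate 2, -0.19 without stattic replicate 2 and -0.53 with library totals. The cytosolic genes called were those of hemin with IL-10 without Iars (0.95, adjusted p = 0.0628). Nars stood at 1038, 862 and 372 CPM and rose by 2.06 ± 0.48 (adjusted p = 0.0108), Rars at 398, 406 and 226 CPM and rose by 1.97 ± 0.32 (adjusted p = 0.00235). Tars rose by 1.80, Cars by 1.67, Gars by 1.55, Aars by 1.53, Sars by 1.45, Yars by 1.42, Lars by 1.10, Eprs by 1.05 and Farsb by 0.89. Wars stood at 245, 119 and 135 CPM and overlapped vehicle, with a log2 change of 0.39 (95% CI -0.47 to 1.25).

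The mitochondrial genes called lower in the stattic group were Pars2 (by 1.21 on the log2 scale, adjusted p = 0.0468), Vars2 (by 1.07, adjusted p = 0.0104), Mars2 (by 0.99, adjusted p = 0.0173), Iars2 (by 0.73, adjusted p = 0.0291) and Hars2 (by 0.67, adjusted p = 0.0456). Fars2 stood at 22.4, 17.4 and 43.5 CPM and rose by 1.30 (adjusted p = 0.0129), with stattic replicate 3 far above the other libraries. Without that library Fars2 rose by 0.81 (adjusted p = 0.0197). Hars2 and Hars overlap head to head by 198 bases, and Iars2 overlaps Rab3gap2 on the opposite strand by 2034 bases. Aars, Cars, Gars, Nars, Rars, Sars, Tars, Yars, Fars2, Vars2 and Lars2 held their calls whichever library was left out. Farsb lost its call without vehicle replicate 1 (adjusted p = 0.0537), Mars2 without vehicle replicate 2 or 3 (at most 0.0790), Lars without stattic replicate 2 or any vehicle library (at most 0.0753) and Iars2 without stattic replicate 2 or 3 or any vehicle library (at most 0.0915). Eprs lost its call without stattic replicate 1 or 2, IL-10 replicate 2, or any hemin or vehicle library (at most 0.133), and Pars2 without stattic replicate 1 or 2, IL-10 replicate 1 or 2, hemin replicate 2 or any vehicle library (at most 0.124). Hars2 lost its call without stattic replicate 2 or 3, IL-10 replicate 1 or 2, or any hemin or vehicle library (at most 0.141). The count of mitochondrial genes called lower was 1 without vehicle replicate 2 or 3, 2 without vehicle replicate 1 or stattic replicate 2, and 3 without hemin replicate 2 or IL-10 replicate 1 or 2. Without the 2 libraries of steepest length trend, 12 cytosolic genes were higher, 4 mitochondrial genes lower and 2 higher. Of all genes 16.5% were then higher and 13.1% lower. The difference between compartment medians was 1.50 without those 2 libraries, against 1.23 with them.

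Lars2, the mitochondrial leucine enzyme, varied widely between libraries. It stood at 711, 333 and 1454 CPM with hemin, IL-10 and stattic, at 297, 264 and 203 CPM with hemin and IL-10, at 199, 261 and 314 CPM with hemin, and at 227, 89.1 and 108 CPM with vehicle. The stattic libraries lay above all 9 others and were widely spread, and the highest of all 12 was stattic replicate 3, the library with the steepest length trend. Against vehicle Lars2 rose by 2.56 ± 0.50 in the stattic group (adjusted p = 0.00509), and by 1.88 without stattic replicate 3 (adjusted p = 0.00969, range over the other fits with 1 library left out 0.0033 to 0.0286). With hemin its log2 change was 0.87 (95% CI -0.17 to 1.91) and with hemin and IL-10 0.85 (95% CI -0.19 to 1.89), and in both the groups overlapped through vehicle replicate 1. The part of library quality in these values was not tested. The summed levels of the other 15 mitochondrial genes were 344, 309 and 360.1 CPM with hemin, IL-10 and stattic, 380.0, 332 and 353 CPM with hemin and IL-10, 336, 319 and 325 CPM with hemin, and 373, 437 and 409.8 CPM with vehicle. Replicate 1 of hemin with IL-10 lay above vehicle replicate 1, and the other 8 hemin-treated libraries lay below every vehicle library.

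**Figure D4:**
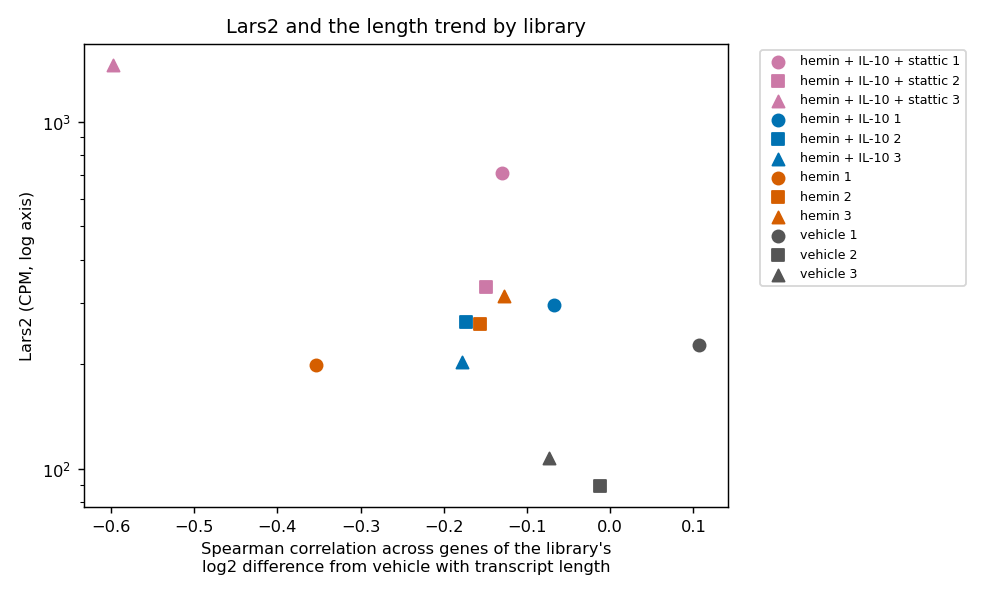
Lars2 level (CPM, log axis) against the Spearman correlation across genes between each library's log2 difference from the vehicle mean and transcript length, 1 point per library, colours for treatment and symbols for replicate. Stattic replicate 3 stands at 1454 CPM and -0.60, while hemin replicate 1, at -0.35, has 199 CPM.

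IL-10 on top of hemin was compared with hemin alone. No gene of 13967 was called (edgeR, adjusted p under 0.05; percent called 0), 337 genes (2.41%) had an unadjusted p under 0.05, and DESeq2 called 3 genes. Of the 37 synthetases 0 had an unadjusted p under 0.05. The log2 changes of the cytosolic genes ran from -0.06 to 0.68 with a median of 0.36, and 20 of 21 were positive. This median was 0.18 without IL-10 replicate 1, 0.22 without hemin replicate 3 and 0.54 without IL-10 replicate 3. The log2 changes of the mitochondrial genes ran from -0.39 to 0.39 with a median of 0.13, which was -0.01 with limma on FPKM and 0.04 without IL-10 replicate 1, beside -0.01 over all genes. Deviations of same-numbered libraries in these 2 groups correlated at 0.37, 0.17 and 0.61 (replicates 1, 2, 3). With the replicate number as a block 0 synthetases were called. The summed cytosolic level was 9530, 7021 and 5361 CPM in replicates 1, 2 and 3 of hemin with IL-10, against 6032, 6317 and 3859 CPM in those of hemin, so it was higher in each same-numbered pair while the groups overlapped. Nars had a log2 change of 0.63 (95% CI -0.37 to 1.63) and Wars of 0.54 (95% CI -0.32 to 1.40). The upper limit of the interval of Nars was 3.08-fold, so a difference up to that size was not excluded.

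Stattic on top of hemin and IL-10 was compared with hemin and IL-10. Again 0 genes were called (percent called 0), 523 (3.74%) had an unadjusted p under 0.05, and DESeq2 called 0. The log2 changes of the cytosolic genes ran from -0.51 to 0.32 with a median of -0.23, and 13 of 21 were negative. This median was 0.01 without IL-10 replicate 1, -0.07 without stattic replicate 3 and -0.41 without IL-10 replicate 3, so its direction rested on 1 library. Across the 21 cytosolic genes the log2 change had a Pearson correlation of -0.60 with log2 transcript length. That correlation was 0.32 for hemin with IL-10 against hemin. Against vehicle it was 0.08 with hemin, 0.15 with hemin and IL-10 and -0.04 with stattic added. The part of transcript length was not tested. The log2 changes of the mitochondrial genes had a median of 0.02, beside 0.02 over all genes. The summed cytosolic level was 7498, 6393 and 4810 CPM with stattic, against 9530, 7021 and 5361 CPM without it, with the groups overlapping. Nars had a log2 change of -0.34 (95% CI -1.34 to 0.66), which was 0.04 without IL-10 replicate 1, and Wars of -0.51 (95% CI -1.37 to 0.35). Lars2 was the only member with an unadjusted p under 0.05, with a log2 change of 1.71 (95% CI 0.65 to 2.77; adjusted p = 0.921), and of 1.02 without stattic replicate 3. The difference between the compartment medians was -0.25, and 0.00 without that library.

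Within each group many cytosolic genes, but not all, shared their lowest library. Hemin replicate 3 was the lowest hemin library for 18 of 21 cytosolic genes, replicate 3 of hemin with IL-10 for 15 and stattic replicate 3 for 11. These libraries were the highest of their groups for 1, 5 and 6 of the 21. Kars, for example, stood at 215, 211 and 389 CPM with stattic. With vehicle replicate 1 was the lowest for 17. How often these libraries were the lowest over all genes was not counted. The mean log2 difference from vehicle over the 21 genes was 1.06, 0.88 and 0.71 in the stattic libraries, 1.29, 0.99 and 0.79 with hemin and IL-10, 0.90, 0.86 and 0.31 with hemin, and -0.12, 0.10 and 0.02 in the vehicle libraries. Every hemin-treated library was above every vehicle library, and hemin replicate 3 came closest. Among 19 stress-response genes outside the family, replicate 3 was likewise the lowest library for 15, 19 and 17 in the stattic, IL-10 and hemin groups. Over the 15 mitochondrial genes without Lars2 the means ran from -0.42 to -0.13 in the 9 hemin-treated libraries and from -0.14 to 0.11 with vehicle. The ranges met in stattic replicate 3 and vehicle replicate 1, and replicate 3 of hemin was not apart there.

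**Figure D5:**
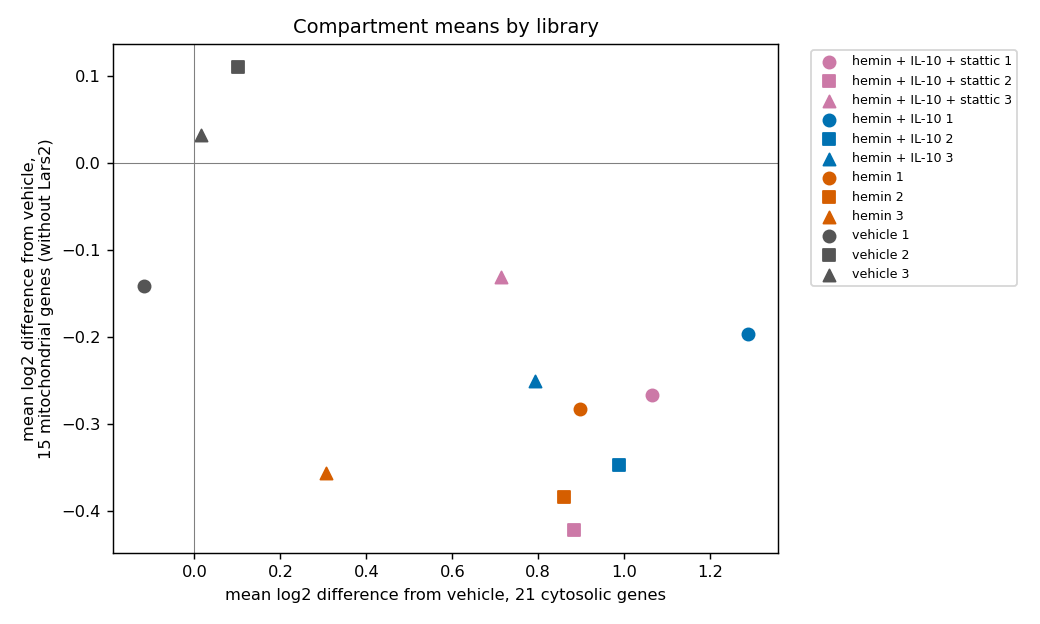
Mean log2 difference from the vehicle mean over the 21 cytosolic genes (horizontal) and the 15 mitochondrial genes without Lars2 (vertical), 1 point per library. The 9 hemin-treated libraries lie to the right of the vehicle libraries, and 8 of them, all but stattic replicate 3, also lie below every vehicle library; hemin replicate 3, at 0.31, is the nearest to vehicle on the horizontal axis.

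Genes that act upstream of or beside the synthetases were counted on lists. Of 19 genes of the integrated stress response outside the family, 12 were higher with hemin, IL-10 and stattic. With hemin and IL-10 14 were higher and with hemin 12, each against vehicle, and 0 were lower. The shares of all genes called higher were 14.7%, 12.1% and 11.7% in the same order, and 10.2%, 8.81% and 9.15% were called lower. Without vehicle replicate 1 Nupr1 lost its call in all 3 comparisons. In that fit Sesn2, Slc7a11 and Trib3 lost theirs with stattic, and Cebpg and Slc7a5 with IL-10. With hemin Asns, Sesn2, Slc7a11, Stc2 and Trib3 lost theirs. Of all genes 6.43%, 5.08% and 5.63% were then called higher. Atf4 stood at 468, 343 and 449 CPM with hemin, IL-10 and stattic, at 624, 491 and 204 CPM with hemin and IL-10, at 413, 401 and 331 CPM with hemin, and at 95.6, 128 and 103 CPM with vehicle. No hemin-treated library overlapped vehicle, and Atf4 rose by 1.95, 2.01 and 1.81 on the log2 scale in the 3 comparisons (adjusted p = 0.00332, 0.00314 and 0.00492). The smallest p-values with hemin were those of Chac1, which degrades glutathione, at 4.45 on the log2 scale (adjusted p = 4.3e-05), the transcription factor Atf3 at 7.46 (adjusted p = 5.6e-05) and Ddit3, which encodes CHOP, at 3.55 (adjusted p = 0.00076). Atf3 stood at 223, 377 and 194 CPM with hemin, against 2.04, 1.74 and 0.667 CPM with vehicle, and its fold therefore rests on a very low vehicle level. Of the 4 eIF2 kinases only Eif2ak3, the kinase of the endoplasmic reticulum, was called, higher by 0.76, 1.17 and 0.99. The first of these calls was lost without stattic replicate 1 or 2, IL-10 replicate 1 or 2, or any vehicle library (adjusted p at most 0.120), and the third without hemin replicate 2 or vehicle replicate 2 or 3 (at most 0.0762). Eif2ak1 stood at 68.3, 61.3 and 58.0 CPM with hemin, against 64.8, 64.2 and 75.3 CPM with vehicle, and its log2 change was -0.12 (95% CI -0.48 to 0.24). Transcript levels do not show the activity of a kinase.

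Companions of the enzymes were counted in the same way. Of the 3 scaffold proteins of the multi-tRNA synthetase complex, 0 were called with hemin or with hemin and IL-10, and Aimp1 (1.11, adjusted p = 0.039) and Eef1e1 (1.07, adjusted p = 0.03) were higher with stattic. Aimp1 stood at 69.7, 99.5 and 160 CPM in that group, against 43.9, 48.2 and 59.9 CPM with vehicle, with the highest value in stattic replicate 3. Both calls were lost without that library or any vehicle library, and that of Aimp1 also without stattic replicate 2 or IL-10 replicate 2 (at most 0.126 for Aimp1 and 0.111 for Eef1e1). Of the 4 genes that finish charged tRNA in mitochondria, Gatc, a subunit of the amidotransferase that makes glutaminyl-tRNA there, was lower in all 3 comparisons, by 0.77 each. It stood at 17.0, 16.3 and 19.4 CPM with hemin, against 27.7, 27.8 and 34.5 CPM with vehicle, and each call was lost without replicate 1 or 2 of the hemin-treated group compared or any vehicle library (adjusted p at most 0.108). Of the 4 genes that clear mischarged tRNA 0 were called in any comparison.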

How the data were processed

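RNA-seq of 12 libraries (4 groups of 3) was analysed from the authors' deposited tables, which hold per gene an expected count (estimated, not normalised reads) and an FPKM value, per the file headers. Tools listed in the submitters' processing notes, without roles or versions, are HISAT, StringTie, Cufflinks, TopHat, RSEM, Bowtie, Bowtie2 and CASAVA. The genome build and use of strand are not given in the sources used here. Per the labels' protocols, the libraries were made with dUTP. Genes missing from a file were taken as 0 there. Of the symbols 99.1% were in the RefSeq table.

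Expected counts were rounded and tested with edgeR 4.0.16 (R 4.3.3): filterByExpr, TMM, robust quasi-likelihood fit of all 12 libraries, Benjamini-Hochberg adjustment over 13967 genes. On simulated data 99 of 100 genes changed 4-fold and 54 of 100 changed 2-fold were recovered for hemin against vehicle (13788 genes). The simulation gave all genes the same fixed spread, without replicate or length trends, and changed only genes above a minimum count. These shares are therefore not the power of the test on the real libraries. CPM use TMM factors; FPKM serve to compare genes. Intervals are 95% and not adjusted. Replicates differed by 14.6 to 176 in chi-square per degree of freedom, so none was a duplicate. Alternatives used DESeq2 1.42.0 and limma 3.58.1 on log2(FPKM + 1) and log2(FPKM + 0.1).

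The members, the gene lists and the choice of named genes were made with earlier results of these data known. The rule gave values in every library to the members with the 6 smallest p-values among those higher and the 4 among those lower with hemin, and always to Cars, Lars2, Gars, Kars, Wars and Tarsl2, with up to 3 genes of smallest p per pathway list, always Atf4 and Eif2ak1; other members are accounted for by their changes or means. Of the 38 genes found by the symbol rule, 1 is not reported here. Replicate numbers come from the labels. Deviations of same-numbered libraries correlated at 0.37, 0.17 and 0.61 (replicates 1, 2, 3) for IL-10 with hemin against hemin. All lay above a chosen limit of 0.1, which counted as pairing. In the other comparisons at least 1 number lay at or under 0.1, which did not. Whether a shared number marks a shared culture or animal is unknown, so this limit does not establish pairing. Gene overlaps come from GENCODE M21 and promoters from RefSeq (GRCm38.p6).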

Additional observations from a re-analysis of the deposited data

How the results depend on the processing

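No member called in a comparison with vehicle changed sign in any alternative (0 of 12 with hemin, 16 with IL-10 and 18 with stattic), and 0 cytosolic genes were called lower in any fit. Against vehicle, hemin raised 1 mitochondrial gene, Fars2, in place of 0 with DESeq2 size factors, library totals, DESeq2, limma on FPKM with either pseudocount, the 2 groups alone, the replicate block, the length offset and without the 2 libraries of steepest length trend. In these fits 7.76% to 16.8% of all genes were called higher. With hemin 6 mitochondrial genes were lower with the 2 groups alone and 5 with DESeq2 or the length offset. Over all genes 15.9%, 10.8% and 10.6% were lower in these fits. With stattic 0 mitochondrial genes were lower and 1 higher with the 2 groups alone, and 3 were lower with no filter on low counts. Over all genes 5.25% were lower and 7.27% higher with the 2 groups alone, and 7.35% were lower with no filter. The compartment medians in the stattic group differed by 1.56 with the length offset and by 1.50 without the 2 libraries of steepest length trend. The log2 change of Kars with hemin was -0.01 with limma at both pseudocounts (-0.0125 and -0.0128), -0.0088 with the length offset and -0.13 without the 2 libraries; the cause was not tested.

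Over fits with 1 library left out, cytosolic genes called higher were 4 to 12 with hemin. Mitochondrial genes called higher were 0 to 1 with hemin and 0 to 1 with IL-10. Over all genes 5.63% to 16% were called higher with hemin and 5.08% to 16.9% with IL-10. Mitochondrial genes called lower were 0 to 5, 1 to 4 and 1 to 5 with hemin, IL-10 and stattic. Over all genes 3.11% to 13.8%, 2.97% to 12.8% and 4.85% to 12.1% were called lower in the same order. The compartment difference ran from 1.03 to 1.36 with hemin and from 1.12 to 1.50 with stattic. Log2 changes ran from -0.13 to 0.28 for Kars with hemin, from -0.0061 to 0.58 for Wars with stattic against vehicle, from -0.17 to 0.15 for Lars2 in hemin with IL-10 against hemin, and from -0.67 to 0.043 for Nars in stattic against hemin with IL-10. Their causes were not tested.

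With the replicate block, cytosolic genes called higher numbered 11, 13 and 12 with hemin, IL-10 and stattic, each against vehicle. Mitochondrial genes called lower numbered 4, 3 and 5 in the same order. Over all genes 15.5%, 15% and 17.5% were then higher and 13.1%, 13.1% and 14.2% lower. Between hemin with IL-10 and hemin, where the replicate numbers counted as pairing by the rule above, the block changed no call of a synthetase.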
